A study of Mus musculus with 9 samples.

Results

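The genes described are 9 enzymes and helper proteins that release arachidonic acid and turn it into eicosanoids, Pla2g4a, Ptgs1, Ptgs2, Alox5, Alox5ap, Ptges, Ptgds, Hpgds and Ltc4s, chosen by name. A probe set with a single gene symbol was found for 8 of them, 1 probe set each, among 19938 genes on the arrays. Ptgs1, the constitutive cyclooxygenase, was not matched and is not analysed here. Arachidonic acid is cut from membrane phospholipids by phospholipase A2 and is then turned into eicosanoids, short-lived lipid mediators of inflammation, fever, pain and vascular tone. The cyclooxygenases make prostaglandin H2, which terminal synthases turn into prostaglandins E2 and D2, while 5-lipoxygenase and its activating protein open the branch to the leukotrienes. In brain, cyclooxygenase-2 is made mainly by excitatory neurons and is induced by synaptic activity, lipocalin-type prostaglandin D synthase by the leptomeninges, the choroid plexus and oligodendrocytes, and the leukotriene enzymes by microglia and by blood leukocytes.

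Each of 9 brain RNA samples, 3 per group, was hybridized to a GeneChip Mouse Gene 1.0 ST array, and the values are log2 signals. The HPYD group comprised APP/PS1 mice, in which transgenic amyloid precursor protein and presenilin 1 lead to plaques. The study describes them as sharing the C57/6J background of the control group. They were given HPYD, a peptide designed to break β-sheets, at 33 mg/mL. The model group comprised APP/PS1 mice given saline, and the control group wild-type C57/6J mice given saline. All were dosed through the nose with 5 μL per day for 30 days. The mice then went through a Morris water maze test, and brain tissue was taken when that test ended. The time between the last trial and tissue collection is not stated. The age at purchase was 8 months for the APP/PS1 animals, and the controls are described as age-matched. The sources name neither the APP/PS1 line nor its promoter, nor the brain region, nor whether the arrays stand for different animals. The p-values thus cover the spread between these arrays alone, and their number limits the precision.

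Before the results, 1 array goes against its label. App was 12.98, 13.01 and 12.53 in HPYD group 1, 2 and 3, 12.95 to 13.02 in the model arrays and 12.56 to 12.62 in the control arrays. Prnp, the prion protein gene that supplies the promoter of some APP/PS1 transgenes, was 12.54, 12.47 and 11.52 in the HPYD arrays, 12.42 to 12.55 in the model arrays and 11.76 to 11.81 in the control arrays. Cst7, a gene of microglia around plaques, was 10.04, 9.46 and 6.21 in the HPYD arrays, 8.14 to 9.75 in the model arrays and 5.50 to 6.40 in the control arrays. The array labelled HPYD group 3 therefore lies with the controls, and values of the HPYD comparisons are also given without it. Xist, which is transcribed in female cells, was 11.33, 11.47 and 5.22 in the HPYD arrays, 11.18 to 11.78 in the model arrays and 5.20 to 5.69 in the control arrays, so that the transgenes and the sex that Xist marks cannot be told apart. Model group 1, model group 2 and HPYD group 2 had raised granulocyte and skeletal muscle genes, as described with the leukotriene genes. Brain RNA was present in all arrays. The 8 neuronal markers averaged 12.07 to 12.28 in the HPYD arrays, 12.02 to 12.29 in the model arrays and 12.25 to 12.40 in the control arrays. These markers cannot show whether other tissue was taken along or whether the dissection was the same.

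The sequences just upstream of the start sites of Ptgs2 and Alox5 are shown because these genes head the prostaglandin and leukotriene branches and were low or high in different arrays. They are the 250 bases before the RefSeq start site in build GRCm38.p6, at chr1:150099781-150100030 on the plus strand for Ptgs2 and at chr6:116461179-116461428 on the minus strand for Alox5. Capitals mark a GC box of the Sp1 type (GGGCGG) or a palindromic C/EBP site (TTGCGCAA).
Ptgs2: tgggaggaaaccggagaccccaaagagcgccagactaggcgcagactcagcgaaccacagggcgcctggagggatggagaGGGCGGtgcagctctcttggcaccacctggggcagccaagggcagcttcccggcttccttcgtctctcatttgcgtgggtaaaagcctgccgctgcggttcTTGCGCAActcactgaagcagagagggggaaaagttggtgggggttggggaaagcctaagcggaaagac
Alox5: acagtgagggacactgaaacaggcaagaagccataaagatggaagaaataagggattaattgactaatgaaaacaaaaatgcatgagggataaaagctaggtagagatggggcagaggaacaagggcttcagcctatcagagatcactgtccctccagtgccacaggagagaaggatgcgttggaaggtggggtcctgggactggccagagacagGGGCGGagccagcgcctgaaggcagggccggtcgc
In Ptgs2 the GC box begins 170 bases and the C/EBP palindrome 69 bases before the start site, and in Alox5 the GC box begins 35 bases before it. Both strands were searched. The GC box is in 32.7% and the palindrome in 0.164% of the 32851 windows of this length in the table, and the 2 motifs do not overlap here. The core of a cAMP response element (TGACG, in 17.8% of windows) and a TATA box (TATAAA, in 12.4%) were also searched. Neither is among the letters of these windows. Letters outside these 250 bases, including those past the RefSeq start site, were not searched. The promoters as a whole may thus hold such sites. A match is a description of the letters, not of binding. Of the 8 measured genes, 7 have an entry in this table.

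Pla2g4a, at chr1:149829618-149961290, encodes cytosolic phospholipase A2, the calcium-dependent enzyme that frees arachidonic acid. Its signal was 6.79, 6.79 and 6.79 in the HPYD arrays, 6.95, 7.28 and 6.82 in the model arrays and 6.58, 6.79 and 6.59 in the control arrays. All 3 model arrays lay above all control and HPYD arrays, the nearest being model group 3, while the HPYD and control arrays overlapped. The group means were 6.79 ± 0.0017 for HPYD, 7.02 ± 0.24 for model and 6.65 ± 0.12 for control (SD, n = 3 arrays each). The log2 fold change was 0.36 (standard error 0.12, 95% interval 0.10 to 0.63) for model versus control, with an adjusted p of 0.859 from limma. It was -0.23 (standard error 0.12) for HPYD versus model, with an adjusted p of 1. For HPYD versus control it was 0.14 (standard error 0.12), with an adjusted p of 0.860. With the array labelled HPYD group 3 left out these last 2 values were -0.23 and 0.14 (standard error 0.14 each, adjusted p = 1). Model group 2 decided much of the size, since without it Pla2g4a was at 0.23 for model versus control and at -0.10 for HPYD versus model (standard error 0.08 each), with adjusted p-values of 1 and 0.933 from limma. Pla2g4a therefore passed in none of the comparisons, and an exact two-sided permutation test gave p = 0.1 for each of the first 2, the smallest that 3 arrays against 3 allow. The study names this gene from these same arrays, so its direction here is not independent evidence. Besides the arrays, the study measured it by RT-qPCR and reported good concordance for the genes so tested. In a bulk sample fewer cells of a type and less RNA per cell cannot be told apart. HPYD group 1, HPYD group 2 and control group 2 hold 1 identical value for this gene to 6 decimals.

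Pla2g4a was highest in model group 2, at 0.63 above the control mean, then in model group 1 at 0.30 and model group 3 at 0.17. These 2 higher arrays also had raised skeletal muscle and granulocyte genes. In HPYD group 2, model group 1 and model group 2 the skeletal muscle median was 0.89, 2.48 and 4.16 and the granulocyte median 2.41, 3.17 and 3.46. Pla2g4a was 0.14 above the control mean in HPYD group 2, as it was in both other HPYD arrays. Its correlation over the 9 arrays was 0.90 with the muscle list and 0.73 with the granulocyte list. Over the 6 arrays left when these 3 were taken out, the correlation with the granulocyte list was -0.42. Without model group 1, model group 2 and HPYD group 2 the difference for model versus control was 0.17 (standard error 0.11, adjusted p = 1 from limma) and rested on model group 3 alone among the model arrays. The part of these other cells in the Pla2g4a signal was not tested. The 3 genes whose pattern over the 9 arrays was most like that of Pla2g4a were Sqor, a mitochondrial sulfide oxidizing enzyme (r = 0.975), Smtnl2 (r = 0.968) and the homeobox gene Hoxa5 (r = 0.956). All of them peaked in model group 2, at 0.90, 0.92 and 1.93 above their control means.

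Ptgs2, at chr1:150100031-150108234, encodes cyclooxygenase-2, the inducible enzyme that makes prostaglandin H2. Its signal was 8.88, 9.51 and 6.86 in the HPYD arrays, 9.52, 7.94 and 9.74 in the model arrays and 9.95, 9.54 and 9.99 in the control arrays. The control arrays were close together, and the wide span of 3.13 on the log2 scale over the 9 arrays came from the array labelled HPYD group 3 and from model group 2. Every HPYD array lay below every control array, and the model arrays overlapped with both other groups. The group means were 8.42 ± 1.38 for HPYD, 9.07 ± 0.99 for model and 9.83 ± 0.25 for control (SD, n = 3 arrays each). The fitted log2 difference was -0.76 (standard error 0.70) for model versus control, with an adjusted p of 0.860 from limma, and -0.19 (standard error 0.68, adjusted p = 1) without model group 2. It was -0.65 (standard error 0.70) for HPYD versus model, with an adjusted p of 1, and -1.41 (standard error 0.70, 95% interval -3.01 to 0.19) for HPYD versus control, with an adjusted p of 0.860. Without the array labelled HPYD group 3 the value for HPYD versus control was -0.63 (standard error 0.52). Without it the value for HPYD versus model turned to 0.13 (standard error 0.52), both with an adjusted p of 1 from limma.

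Ptgs2 belongs with the immediate early genes of neurons, and a list of 10 such genes, Ptgs2 not among them, was set beside it. All 10 lay below every control array in the array labelled HPYD group 3, and 8 did in model group 2. The count was 5 in HPYD group 1, 5 in HPYD group 2, 2 in model group 1 and 1 in model group 3. The share of all genes below every control array was not counted for single arrays, so these counts are a description. The median of the 10 genes was at -1.13 from the control mean in the array labelled HPYD group 3 and at -1.07 in model group 2. Ptgs2 was at -2.96 and -1.89 from its control mean in these 2 arrays. In the other 4 arrays of the HPYD and model groups the list median was between -0.21 and 0.02. Arc, a gene of synaptic plasticity, was 10.08, 9.94 and 7.85 in the HPYD arrays, 9.80, 8.61 and 10.11 in the model arrays and 9.97, 9.82 and 10.36 in the control arrays. Npas4, an activity-dependent transcription factor, was 8.25, 7.81 and 6.68 in the HPYD arrays, 7.60, 7.10 and 8.15 in the model arrays and 8.68, 8.62 and 8.38 in the control arrays. Fos, a transcription factor subunit, varied less, at -0.27, -0.10 and -0.65 from its control mean in the HPYD arrays and 0.25, -0.23 and -0.10 in the model arrays. HPYD group 1 differed, since Ptgs2 there was at -0.94 from its control mean while Arc was 0.04 above its own. Over the 9 arrays the correlation of Ptgs2 with the list median was 0.95, and without the 2 low arrays it was 0.77 over 7 arrays. Tissue was taken after the water maze test, and the part of that test in these signals was not tested. The genes most like Ptgs2 over the 9 arrays were Nr4a3 (r = 0.985), another activity-induced gene, the ubiquitin ligase Pdzrn3 (r = 0.984) and Pdgfra (r = 0.983), the receptor that marks oligodendrocyte precursors.

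**Figure D1:**
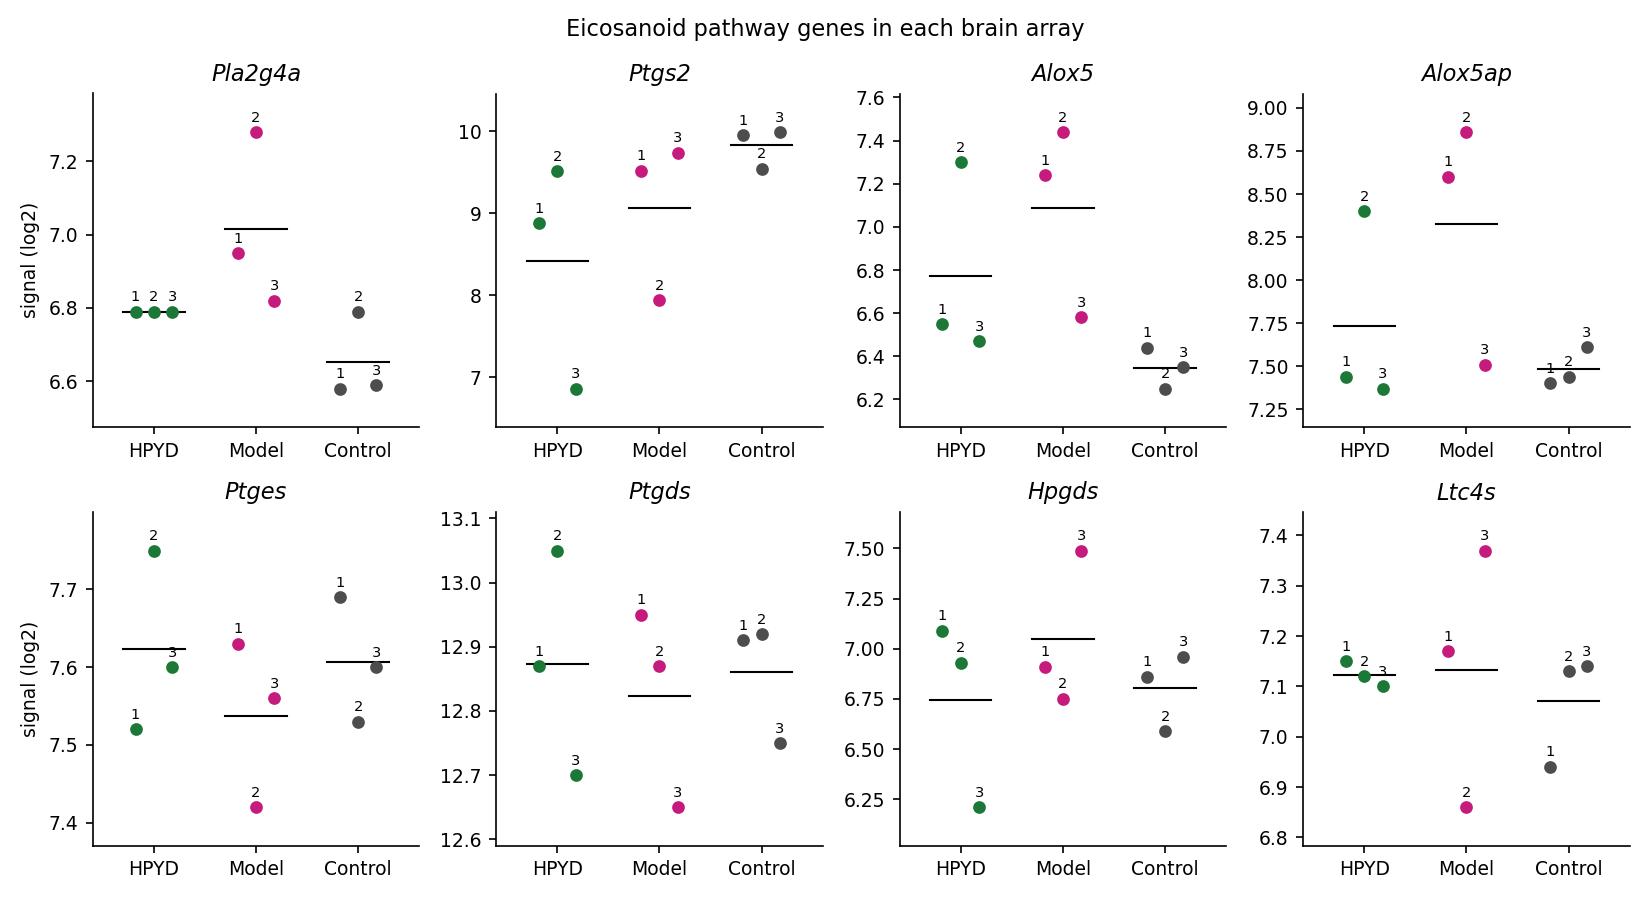
Signal (log2, vertical axis, with a scale of its own in each panel) of the 8 measured genes in the HPYD, model and control groups; points are arrays with their replicate number and lines are group means. Pla2g4a is higher in all 3 model arrays than in any other array, Ptgs2 is lowest in HPYD group 3 (6.86) and model group 2 (7.94), and Alox5 and Alox5ap are highest in model group 1, model group 2 and HPYD group 2.

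No terminal prostaglandin synthase passed in any comparison, and the groups overlapped for each. Ptges, at chr2:30889471-30931020, encodes the inducible microsomal enzyme that makes prostaglandin E2 downstream of cyclooxygenase-2. Its signal was 7.52, 7.75 and 7.60 in the HPYD arrays, 7.63, 7.42 and 7.56 in the model arrays and 7.69, 7.53 and 7.60 in the control arrays, so that all groups overlapped. The 95% interval of the log2 difference was -0.26 to 0.12 for model versus control, -0.11 to 0.28 for HPYD versus model and -0.18 to 0.21 for HPYD versus control. Its span was 0.33 over the 9 arrays. Without the array labelled HPYD group 3 the difference was 0.10 for HPYD versus model and 0.03 for HPYD versus control (standard error 0.10 each).

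Ptgds, at chr2:25466709-25470110, encodes lipocalin-type prostaglandin D synthase, a secreted protein of the cerebrospinal fluid. Its signal was 12.87, 13.05 and 12.70 in the HPYD arrays, 12.95, 12.87 and 12.65 in the model arrays and 12.91, 12.92 and 12.75 in the control arrays. The groups overlapped, and the 95% intervals were -0.29 to 0.22 for model versus control, -0.21 to 0.31 for HPYD versus model and -0.24 to 0.27 for HPYD versus control. The last 2 differences were 0.14 and 0.10 without the array labelled HPYD group 3 (standard error 0.11 each). The choroid plexus list varied more than Ptgds did, with list medians of 0.95, -0.47 and 1.26 from the control mean in the HPYD arrays, 0.44, 0.93 and 0.66 in the model arrays and -0.44, 1.02 and -0.50 in the control arrays. HPYD group 2 had the highest Ptgds signal and a low choroid plexus median. The meningeal fibroblast list had medians of -0.21, 0.45 and 0.19 in the HPYD arrays, 0.55, 0.22 and -0.22 in the model arrays and 0.09, 0.07 and -0.14 in the control arrays. It was high with Ptgds in HPYD group 2 and low with it in model group 3, but not in the array labelled HPYD group 3. Over the 9 arrays the correlation of Ptgds was 0.65 with the meningeal list and -0.34 with the choroid plexus list, and the part of either tissue was not tested.

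Hpgds, at chr6:65117293-65144981, encodes the hematopoietic prostaglandin D synthase, which makes the same product as Ptgds in microglia, mast cells and other leukocytes. Its signal was 7.09, 6.93 and 6.21 in the HPYD arrays, 6.91, 6.75 and 7.49 in the model arrays and 6.86, 6.59 and 6.96 in the control arrays. The array labelled HPYD group 3 was lowest and model group 3 highest, and the groups overlapped. On the log2 scale the difference was 0.24 (standard error 0.26) for model versus control, -0.31 (standard error 0.26) in HPYD versus model and -0.06 (standard error 0.26) in HPYD versus control, with adjusted p-values of 0.880, 1 and 0.963 from limma. Without the array labelled HPYD group 3 the last 2 values were -0.04 and 0.21 (standard error 0.22 each), both with an adjusted p of 1.

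The homeostatic microglia list, of which 9 of 10 genes were measured, was also lowest in the array labelled HPYD group 3, at -0.63 from the control mean, and highest in model group 3, at 0.39. In model group 2 the list was low at -0.37 while Hpgds was at -0.05. The list averaged 7.64 to 8.71 in the HPYD arrays, 8.02 to 8.83 in the model arrays and 8.33 to 8.49 in the control arrays, with no member at 0 on this scale. The correlation of Hpgds with the list median was 0.83 over the 9 arrays and 0.68 over the 7 arrays left without HPYD group 3 and model group 2. The median of the 7 mast cell genes stayed between -0.09 and 0.17 from the control mean in all arrays. The part of either cell type in the Hpgds signal was not tested. The genes most like Hpgds over the 9 arrays were Cd200r4 (r = 0.955), Tmem167b (r = 0.951) and Trak2 (r = 0.950). Of these, Cd200r4 was dim, with means of 3.38 in the HPYD, 3.49 in the model and 3.36 in the control arrays.

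The leukotriene genes Alox5 and Alox5ap had their highest signals in model group 1, model group 2 and HPYD group 2, the arrays in which granulocyte genes were also high, and neither passed in any comparison. Alox5, at chr6:116410071-116461178, encodes 5-lipoxygenase. Its signal was 6.55, 7.30 and 6.47 in the HPYD arrays, 7.24, 7.44 and 6.58 in the model arrays and 6.44, 6.25 and 6.35 in the control arrays. All model and HPYD arrays lay above the highest control array, while the HPYD and model arrays overlapped. The group means were 6.77 ± 0.46 for HPYD, 7.09 ± 0.45 for model and 6.35 ± 0.10 for control (SD, n = 3 arrays each). The log2 fold change was 0.74 (standard error 0.27, 95% interval 0.13 to 1.35) for model versus control, with an adjusted p of 0.859 from limma. It was -0.32 (standard error 0.27) in HPYD versus model and 0.43 (standard error 0.27) in HPYD versus control, with adjusted p-values of 1 and 0.860. With the array labelled HPYD group 3 left out these 2 values were -0.16 and 0.58 (standard error 0.29 each), both with an adjusted p of 1.

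Alox5ap, at chr5:149265004-149288153, encodes the 5-lipoxygenase activating protein, a membrane protein that hands arachidonic acid to the enzyme. Its signal was 7.44, 8.40 and 7.37 in the HPYD arrays, 8.60, 8.86 and 7.51 in the model arrays and 7.40, 7.44 and 7.61 in the control arrays. Model group 1, model group 2 and HPYD group 2 stood above the rest, and model group 3, HPYD group 1 and HPYD group 3 lay within 0.12 of the control mean. The fitted log2 difference was 0.84 (standard error 0.38, 95% interval -0.03 to 1.71) for model versus control, with an adjusted p of 0.859 from limma. It was -0.59 (standard error 0.38) in HPYD versus model and 0.25 (standard error 0.38) in HPYD versus control, with adjusted p-values of 1 and 0.887. Without the array labelled HPYD group 3 these 2 values were -0.40 and 0.44 (standard error 0.42 each), both with an adjusted p of 1.

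The 19 granulocyte genes, all of them measured, had list medians of -0.54, 2.41 and -0.10 from the control mean in the HPYD arrays, 3.17, 3.46 and -0.37 in the model arrays and -0.08, 0.11 and 0.01 in the control arrays. Their mean log2 level was 5.71 to 8.36 in the HPYD arrays, 5.66 to 9.20 in the model arrays and 6.22 to 6.44 in the control arrays. The model mean exceeded the control mean for all 19, and no marker is at 0 on this scale. The median of 12 skeletal muscle genes was 0.89 in HPYD group 2, 2.48 in model group 1 and 4.16 in model group 2, on the same scale. In the 3 arrays with raised granulocyte genes Alox5 was 0.95, 0.90 and 1.09 above its control mean in HPYD group 2, model group 1 and model group 2. Alox5ap was 0.92, 1.12 and 1.38 above its own in the same order. Over the 9 arrays the genes most like Alox5ap were Fcnb (r = 0.993) and Ctsg (r = 0.990), both made by granulocytes and their precursors, and Car3 (r = 0.989), a carbonic anhydrase of muscle and fat. Those most like Alox5 were Tmem106a (r = 0.979), the myeloid tyrosine kinase Fes (r = 0.973) and Tnfrsf1a (r = 0.968), a receptor for tumour necrosis factor.

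Outside those 3 arrays the 2 genes parted. Alox5ap was 0.03 above its control mean in model group 3, at -0.04 from it in HPYD group 1 and at -0.12 in the array labelled HPYD group 3. Alox5 was 0.24, 0.20 and 0.12 above its control mean in the same arrays, beyond the highest control array. Fitted without the 3 arrays, with model group 3 then standing alone for its group, the difference for model versus control was 0.24 (standard error 0.10) for Alox5 and 0.03 (standard error 0.11) for Alox5ap, both with an adjusted p of 1 from limma. The correlation with the granulocyte list was 0.94 for Alox5 and 0.98 for Alox5ap over the 9 arrays, and -0.89 for Alox5 and 0.04 for Alox5ap over these 6. Other lists also went with the 2 genes over the 9 arrays. The correlation with the skeletal muscle list was 0.85 for Alox5 and 0.92 for Alox5ap, and that with the meningeal fibroblast list 0.70 for both. The plaque-associated microglia list also differed between the groups, with medians of 1.19, 1.07 and -0.16 from the control mean in the HPYD arrays and 1.03, 0.61 and 1.14 in the model arrays, and a higher model than control mean for 12 of 12 genes. It was also high in HPYD group 1 and model group 3, where Alox5 was 0.20 and 0.24 above its control mean and Alox5ap at -0.04 and 0.03. Its correlation over the 9 arrays was 0.57 with Alox5 and 0.44 with Alox5ap. The part of granulocytes, muscle, meninges or microglia in either signal was not tested.

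Ltc4s, at chr11:50236461-50238532, encodes leukotriene C4 synthase, which couples leukotriene A4 to glutathione. Its signal was 7.15, 7.12 and 7.10 in the HPYD arrays, 7.17, 6.86 and 7.37 in the model arrays and 6.94, 7.13 and 7.14 in the control arrays. It was lowest in model group 2, where Alox5 and Alox5ap were highest, and highest in model group 3. The 95% intervals were -0.22 to 0.34 for model versus control, -0.29 to 0.27 for HPYD versus model and -0.23 to 0.33 for HPYD versus control. Without the array labelled HPYD group 3 the values for HPYD versus model and HPYD versus control were 0.0031 and 0.06 (standard error 0.14 each). The genes most like Ltc4s over the 9 arrays were Izumo3 (r = 0.945), 2310001K24Rik (r = 0.939) and Olfr1423 (r = 0.928), each of which averaged under 5 on the log2 scale in all 3 groups.

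**Figure D2:**
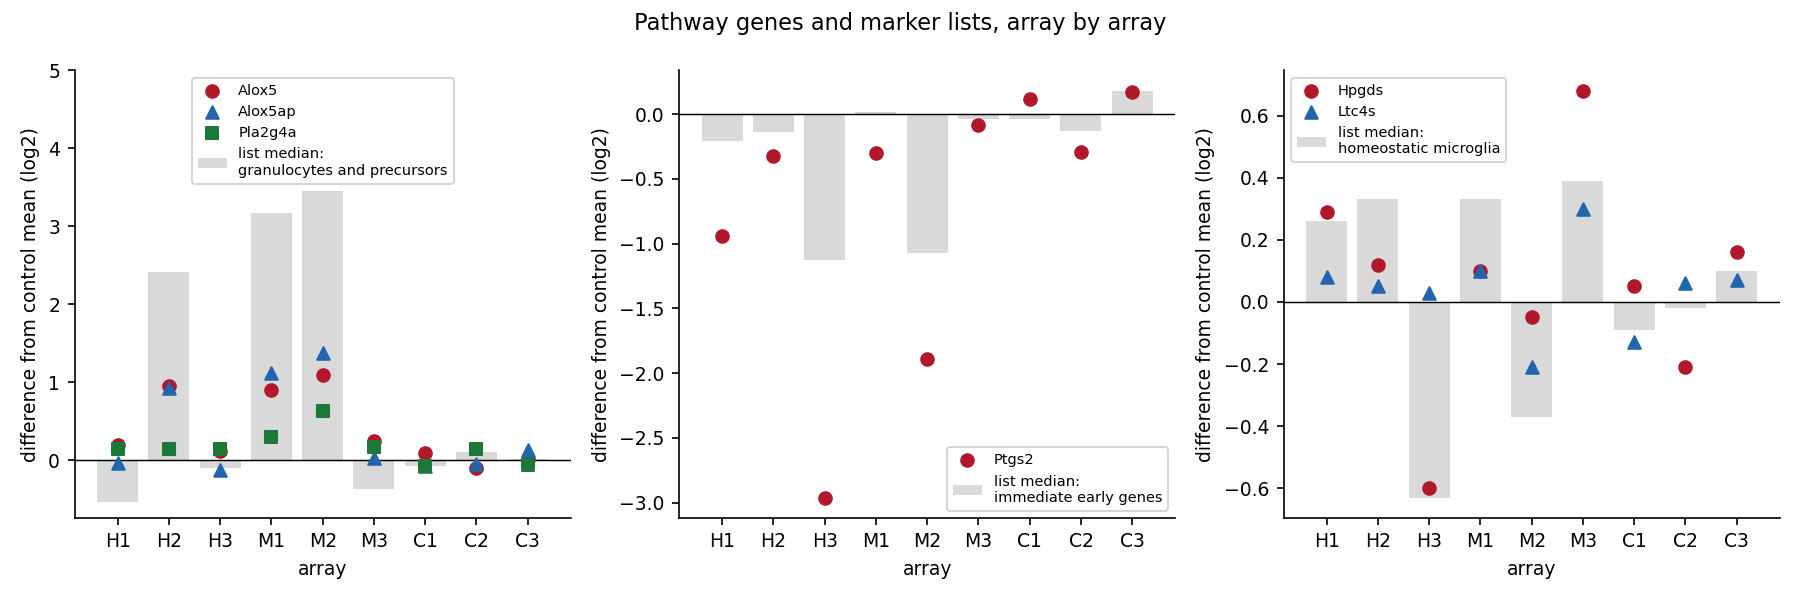
Difference from the control mean (log2, vertical axis) in each array (H1 to H3, HPYD group; M1 to M3, model group; C1 to C3, control group); points are genes and grey bars are medians of the marker list named in each panel. Alox5 and Alox5ap are raised in H2, M1 and M2 with the granulocyte list, Ptgs2 is low in H3 and M2 with the immediate early genes, and Hpgds is lowest in H3 and highest in M3.

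Across the 8 genes, model versus control gave 0 at an adjusted p under 0.05 by limma, as it did over all 19938 genes (0% called). At an unadjusted p under 0.05, 2 of the 8 were higher, Pla2g4a and Alox5, against 2.87% of all genes, and 0 were lower, against 2.05%. Alox5 was no longer at that level without model group 1, model group 2, control group 2 or control group 3, at 0.66, 0.57, 0.69 and 0.74. Neither gene was at that level without model group 1, model group 2 and HPYD group 2 together. In the deposited values the same 2 genes had model arrays all above the control arrays, which held for 4.83% of all genes, and 0 of the 8 lay apart on the lower side (4.68%). The median log2 fold change of the 8 was 0.15, beside -0.01 over all genes. For HPYD versus model, 0 of the 8 passed an unadjusted p under 0.05 in either direction, against 1.22% of all genes higher and 0.752% lower. Pla2g4a was the gene among them whose HPYD arrays all lay below the model arrays, as did 0.983% of all genes, 0 lay apart on the higher side (2.24%), and the median of the 8 was -0.27 beside 0.02 over all genes. This comparison shares its model arrays with the one before. For HPYD versus control, 0 of the 8 passed an unadjusted p under 0.05 (2.00% of all genes higher, 1.24% lower). Here Alox5 lay apart on the higher side, as did 4.78% of all genes, and Ptgs2 on the lower side, as did 4.74%. Without the array labelled HPYD group 3 the median of the 8 was -0.02 for HPYD versus model (0.0091 over all genes) and 0.12 for HPYD versus control (-0.0059 over all genes). Pla2g4a was then still apart on the lower side of the model arrays (3.73% of all genes) and 0 genes on the higher side (4.30%), while against the controls Alox5 was apart on the higher side (7.32%) and Ptgs2 on the lower (8.09%). By the moderated F test of limma across groups, Pla2g4a was the 1 gene of the 8 at an unadjusted p under 0.05, against 2.74% of all genes, with an adjusted p of 0.939. By one-way analysis of variance 0 of the 8 reached that level, against 2.21% of all genes. These shares depend on the scaling, since 572 genes were higher and 408 lower for model versus control in the deposited values, 465 and 664 with arrays shifted to one median, and 564 and 608 after quantile normalization. For HPYD versus control the counts were 399 and 247, 285 and 364, and 362 and 347 in the same order.

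**Figure D3:**
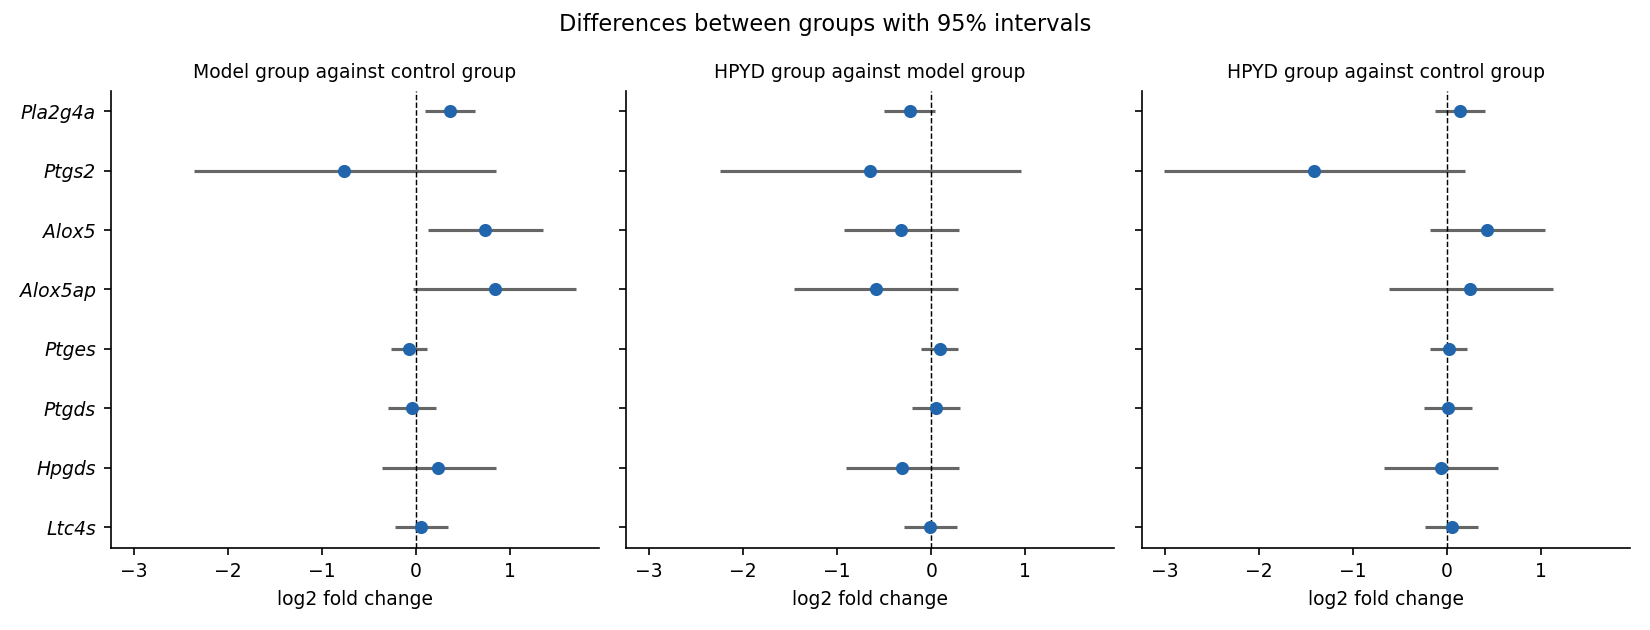
Log2 fold change (horizontal axis) of the 8 genes in each of the 3 comparisons; points are limma's estimates and lines their 95% intervals, and the dashed line marks no difference. For model versus control the intervals of Pla2g4a (0.10 to 0.63) and Alox5 (0.13 to 1.35) lie above 0, and those of Ptgs2 are the widest.

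Other genes of the route were taken from 4 lists of 78 genes, of which 71 were measured. For model versus control, arrays lay apart on the higher side for 8 of the 71 and on the lower side for 1 (4.83% and 4.68% of all genes). These counts were 1 and 1 for HPYD versus model (2.24% and 0.983%) and 4 and 3 for HPYD versus control (4.78% and 4.74%). For model versus control 0 of the 71 passed an adjusted p by limma, 4 were higher at an unadjusted p under 0.05 (2.87% of all genes) and 0 were lower (2.05%), and the median log2 fold change was 0.02. None of these 4 was a phospholipase or a receptor. Of the 10 measured genes that make, carry or break down prostanoids, 2 were among them. Hpgd, which inactivates prostaglandin E2, was 8.38, 8.25 and 7.99 in the HPYD arrays, 8.34, 8.18 and 8.03 in the model arrays and 7.81, 7.88 and 7.88 in the control arrays. Its HPYD and model arrays all lay above the control arrays. On the log2 scale the difference was 0.33 for model versus control and 0.35 for HPYD versus control (standard error 0.11 each), with adjusted p-values of 0.859 and 0.860 from limma.

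Tbxas1, the thromboxane synthase of platelets and macrophages, was 6.43, 6.47 and 5.84 in the HPYD arrays, 6.72, 6.44 and 6.71 in the model arrays and 5.98, 6.27 and 6.27 in the control arrays. It was above the controls in every APP/PS1 array other than the array labelled HPYD group 3. The log2 fold change for model versus control was 0.45 (standard error 0.18, adjusted p = 0.859 from limma). It was -0.38 (standard error 0.18) for HPYD versus model, with an adjusted p of 1.

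Of the 19 measured lipoxygenase, leukotriene and epoxide genes, the model mean was the higher for 14, as it was for 45.0% of all genes, and the median log2 fold change was 0.09. Lta4h, the enzyme that makes leukotriene B4, was 8.67, 8.51 and 8.58 in the HPYD arrays, 8.79, 8.94 and 8.61 in the model arrays and 8.53, 8.54 and 8.51 in the control arrays. It was highest in the model arrays with raised granulocyte genes but not raised in HPYD group 2. The fitted log2 difference was 0.25 (standard error 0.09) for model versus control and -0.19 (standard error 0.09) for HPYD versus model, with adjusted p-values of 0.859 and 1 from limma. Dpep1, a dipeptidase that turns leukotriene D4 into leukotriene E4, was 6.24, 6.82 and 6.97 in the HPYD arrays, 6.75, 6.80 and 6.37 in the model arrays and 5.84, 6.25 and 5.91 in the control arrays. On the log2 scale the difference was 0.64 for model versus control and 0.68 for HPYD versus control (standard error 0.21 each), with adjusted p-values of 0.859 and 0.860.

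The 28 measured genes that release or recycle arachidonic acid lay between -0.29 and 0.21 on the log2 scale for model versus control, with a median of -0.03 and 0 at an unadjusted p under 0.05. Mboat7, which returns arachidonic acid to phosphatidylinositol, had the smallest p among them. It was 9.45, 9.49 and 9.15 in the HPYD arrays, 9.49, 9.04 and 9.52 in the model arrays and 9.60, 9.59 and 9.64 in the control arrays, all of which lay above the rest. Of all genes, 4.68% lay apart on the lower side for model versus control and 4.74% for HPYD versus control. The log2 fold change of Mboat7 was -0.26 for model versus control and -0.25 for HPYD versus control (standard error 0.14 each), with adjusted p-values of 0.859 and 0.860 from limma. Lpcat3, which puts arachidonic acid into phospholipids, was the 1 gene of the 71 lower at an unadjusted p under 0.05 for HPYD versus model (0.752% of all genes), at -0.22 (standard error 0.08, adjusted p = 1), and 0 were higher (1.22%). It was 9.27, 9.29 and 9.49 in the HPYD arrays, 9.59, 9.68 and 9.44 in the model arrays and 9.42, 9.43 and 9.41 in the control arrays.

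The 14 measured eicosanoid receptors lay between -0.24 and 0.19 for model versus control, with a median of 0.02. The smallest p among them was that of Cmklr1, the chemerin and resolvin receptor of macrophages, at 0.17 (standard error 0.09, adjusted p = 0.859 from limma). Ptger4, a receptor for prostaglandin E2, was 6.49, 6.44 and 6.47 in the HPYD arrays, 6.41, 6.38 and 6.23 in the model arrays and 6.22, 6.37 and 6.27 in the control arrays. All HPYD arrays lay above all others. Of all genes, 2.24% lay apart on the higher side for HPYD versus model and 4.78% for HPYD versus control. Hpgd, Dpep1 and Ptger4 were the 3 of the 71 genes higher for HPYD versus control at an unadjusted p under 0.05 (2.00% of all genes), and 0 were lower (1.24%). The fitted log2 difference of Ptger4 was 0.13 for HPYD versus model and 0.18 for HPYD versus control (standard error 0.07 each), with adjusted p-values of 1 and 0.860. HPYD versus control, without the array labelled HPYD group 3, was 0.18 for Ptger4 (standard error 0.08), 0.45 for Hpgd (0.10), 0.53 for Dpep1 (0.22) and -0.15 for Mboat7 (0.14), with adjusted p-values of 0.855 for Hpgd and 1 for the other genes from limma. HPYD versus model was then -0.29 for Lpcat3 (standard error 0.08), -0.18 for Tbxas1 (0.12), -0.19 for Lta4h (0.10) and 0.13 for Ptger4 (0.08), all with an adjusted p of 1.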

How the data were processed

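The authors deposited log2 signals of probe sets on 9 arrays, between 2.37 and 14.01. MAS5 is named in the submitters' processing notes with no version, while background correction and normalization were not given in the sources used here. The labels name Trizol and biotinylated cRNA, whereas the study's methods describe column extraction and labelled cDNA. Values were used as deposited, with array medians between 6.69 and 6.82, and the number of columns not used was 0.

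Of 35556 probe sets, 21789 had a single gene symbol in the platform annotation, 1621 had several and 12146 had none. Each of 19938 genes was represented by its brightest probe set on average. Promoter windows and coordinates came from RefSeq (GRCm38.p6). The 3 groups were fitted together with limma 3.58.1 in R 4.3.3, without a covariate (6 residual and 2.13 prior degrees of freedom), and p-values were adjusted by Benjamini and Hochberg's method across genes, after a test on simulated data. Exact permutation tests were run in scipy 1.17.1. The genes described, the lists and the tests were chosen with earlier results of these data known. In each pathway list and comparison, up to 4 genes at an unadjusted p under 0.05 were named, or the gene with the smallest p where there was none. For described genes spanning over 0.5 across the arrays, the 3 genes with the highest Pearson correlation were named. App, Prnp, Xist and Cst7 served as checks of the labels. Up to 2 genes of a marker list were to be named, but of the immediate early genes Arc, Npas4 and Fos were. There were 16 alternatives: 2 other normalizations, a filter on dim genes, a fit to only the compared arrays, a block for replicate number, the mean of a gene's probe sets, the fit without 3 arrays, and leaving out each array in turn. The one-way analysis of variance named in the study's methods was also run.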

Additional observations from a re-analysis of the deposited data

How the results depend on the processing

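No adjusted p of the 8 genes by limma was under 0.05 in any of the 16 alternatives, with adjusted p-values between 0.206 and 1 for model versus control, 0.656 and 1 for HPYD versus model, and 0.572 and 1 for HPYD versus control. Over all genes, 5 passed for model versus control with only the 6 arrays compared, namely Xist, Kdm5d, Uty and Eif2s3y, all on the sex chromosomes, and Ccl6. Leaving out 1 array gave 0 to 7 for model versus control and 0 to 8 for HPYD versus control, the highest counts being those without the array labelled HPYD group 3. The genes were then the same with Prnp and Nnt, and for HPYD versus control also Tyrobp. The transgenes, sex and any difference in genetic background cannot be told apart in these counts. At an unadjusted p under 0.05, the number of the 8 genes higher for model versus control was 1 without model group 1, model group 2 and HPYD group 2 (Ltc4s, with an adjusted p of 1). That value sets the single array of model group 3 against the controls, on the assumption that it varies like the other groups. When 1 array was left out, 1 to 3 of the 8 genes were higher at that level for model versus control, beside 247 to 1125 of all 19938 genes. Alox5 was not among the 8 genes so called without model group 1, model group 2, control group 2 or control group 3. The number lower for HPYD versus model was 0 to 3 when 1 array was left out, with 3 (Pla2g4a, Alox5 and Alox5ap) without model group 3 and 2 (Alox5 and Alox5ap) without HPYD group 2. The count over all 19938 genes moved too, with 665 lower without model group 3 and 265 without HPYD group 2, against 150 with all arrays. For HPYD versus control the number of the 8 genes lower was 0 to 1 when 1 array was left out. Ptgs2 reached that level without HPYD group 2 (211 of all genes lower), at a log2 fold change of -1.95 with an adjusted p of 0.855 from limma. It did so again without the 3 arrays (471 of all genes lower), with an adjusted p of 0.731. Both fits keep only HPYD group 1 and the array labelled HPYD group 3 of the HPYD arrays. Without the array labelled HPYD group 3 the value was -0.63. The one-way analysis of variance gave 0 where the moderated F test gave 1. With the replicate number as a block, 3 of the 8 genes (Pla2g4a, Alox5 and Alox5ap) were higher at that level for model versus control and 0 genes passed after adjustment. Over all genes 604 were then higher at that level, against 572 without the block. The numbers do not pair the arrays, since same-numbered arrays correlated at -0.32 to 0.18, with 2 of 9 pairs over 0.1, and 1 of 9 arrays correlated best with its own number.

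The directions that turned were mostly those of differences near 0. For HPYD versus control, Ptges was at -0.00397 and Ptgds at -0.0082 with arrays shifted to one median, and Ptgds at -0.0016 with quantile normalization. Without model group 1, model group 2 and HPYD group 2, Alox5ap was at -0.08, Ptges at -0.05 and Ptgds at -0.08. For HPYD versus model, Ltc4s was at 0.000637 with quantile normalization and Ptges at -0.0010 without the 3 arrays. When 1 array was left out, the ranges for model versus control were -0.10 to 0.05 for Ptgds and -0.06 to 0.20 for Ltc4s. For HPYD versus model they were -1.22 to 0.13 for Ptgs2, -0.04 to 0.14 for Ptgds and -0.15 to 0.11 for Ltc4s. For HPYD versus control they were -0.08 to 0.44 for Alox5ap, -0.05 to 0.07 for Ptges, -0.08 to 0.10 for Ptgds, -0.24 to 0.21 for Hpgds and -0.01 to 0.09 for Ltc4s. Hpgds for model versus control ranged from 0.03 to 0.39. The cause of these changes was not tested.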

Other observations

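The 7 astrocyte markers were highest in the arrays where Ptgs2 was lowest. Their median lay 0.29 above the control mean in the array labelled HPYD group 3 and 0.27 above it in model group 2, and between 0.07 and 0.14 above it in the other 4 arrays of the HPYD and model groups. Over the 9 arrays the correlation of Ptgs2 with this list was -0.94, a description chosen from 12 lists after the values were seen.

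Of all genes, 48.5% (9668 of 19938) hold the same deposited value to 6 decimals in 2 or more arrays. Among the 8 genes described this was so for 3, Pla2g4a, Ptges and Ptgds, and for Pla2g4a it involved 3 of the 9 arrays.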
